A study of Mus musculus with 18 samples.

Results

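The genes described here are the replication-dependent histone genes of the mouse, which encode the core histones H2A, H2B, H3 and H4 and the linker histone H1. They were taken as every row of the deposited expression table whose symbol begins with Hist and a number from 1 to 4 followed by h. Of 19862 rows, 69 met that rule, and all 69 were above 0 in at least 3 libraries. In 63 of them the value was above 0 in all 18 libraries, and the sparsest was above 0 in 7. Hist1h2bq and Hist1h2br held identical values, as did Hist2h3c1 and Hist2h3c2, so 67 members were counted. They comprise 6 H1, 19 H2A, 18 H2B, 11 H3 and 13 H4 genes. The digit in each symbol names the gene group: 55 rows lie on chromosome 13 (Hist1), 10 on chromosome 3 (Hist2), 3 on chromosome 11 (Hist3) and 1 on chromosome 6 (Hist4). RefSeq classes 2 of the rows as pseudogenes, Hist1h2al and Hist3h2bb-ps.

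The libraries come from a mouse osteosarcoma cell line grown out of tumours of mice with conditional deletion of p53 and Rb, so every group shares that background. The cells carry floxed Prmt1 alleles and stably express CreER, a Cre recombinase that is activated by tamoxifen. Prmt1 is the enzyme that places most asymmetric dimethylarginine on proteins. Control cells received ethanol as vehicle and are labelled wild type; knockout cells received 4OHT, the active form of tamoxifen. The labels give a mixed strain background and an age of postnatal day 299 for all samples. Part of each cytoplasmic lysate gave Total RNA, and the rest was separated on a sucrose gradient into a Light pool (fewer than 3 ribosomes) and a Heavy pool (more than 3 ribosomes). Each of the 6 groups has 3 libraries. No cells without floxed alleles that received 4OHT are among these libraries, so an effect of 4OHT or of active Cre cannot be told apart from that of the deletion. The labels do not say whether replicate libraries were grown as separate cultures, so a p-value here reflects the spread among these libraries, which may be technical. In bulk RNA such as this, fewer cells that express a gene and less RNA per cell cannot be told apart.

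As background, most histone protein is needed while DNA is being copied, and the replication-dependent genes are transcribed mainly in S phase. Their messages usually end not in a poly(A) tail but in a short stem-loop, made when the U7 small nuclear ribonucleoprotein, which contains Lsm10 and Lsm11, positions the cleavage of the transcript. The stem-loop-binding protein Slbp holds that end, takes part in translating the message and is lost when S phase ends, after which the messages are degraded. Some of these genes can also give polyadenylated messages from signals further downstream, which are known from differentiated and non-dividing cells. Most of the genes have no introns, they lie in large clusters, and H2A and H2B genes are often arranged as divergent pairs.

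The stem-loops are shown because they are the feature that defines the message class. A search of the stretch after the stop codon in GENCODE transcripts of mm10 found one in 46 of the 69 rows. There were 8 distinct sequences, and the most frequent one was found in 26 rows. The examples below carry the stem-loop of 16 bases in capitals with 5 flanking bases on each side, in the sense of the message.

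Hist1h1c (H1, chromosome 13): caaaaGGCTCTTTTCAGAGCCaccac
Hist1h2bg (H2B, chromosome 13): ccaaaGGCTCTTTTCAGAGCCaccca
Hist2h2aa1 (H2A, chromosome 3): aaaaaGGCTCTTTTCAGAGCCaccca
Hist2h3c1 (H3, chromosome 3): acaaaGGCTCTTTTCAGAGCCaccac
Hist1h3c (H3, chromosome 13): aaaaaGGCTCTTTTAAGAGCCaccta
Hist1h4i (H4, chromosome 13): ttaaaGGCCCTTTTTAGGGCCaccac

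The first 4 share the most frequent stem-loop, although Hist1h1c and Hist2h3c1 have annotated transcripts that run 840 and 1167 bases past it and Hist2h2aa1 has 35. The form printed for Hist1h3c occurs in 6 rows (Hist1h1t, Hist1h2bb, Hist1h2bk, Hist1h3c, Hist1h3e and Hist1h3f), and that of Hist1h4i is shared with Hist2h4. In 13 rows no bases were annotated after the stop codon, so nothing could be found there. Hist1h2bc, Hist1h2bq with Hist1h2br, and Hist2h2be had no match in over 100 annotated bases.

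Promoters in RefSeq (GRCm38.p6, 250 bases before the start to 50 after) were found for 62 of the 69 rows, with 63 starts. The pair below shows an H2B gene that rose and an H3 gene that fell in knockout cells, with capitals for matches on either strand to the octamer ATTTGCAT (bound by Oct factors), to CCAAT and to TATAAA.

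Hist1h2bg, chr13:23571150-23571449, plus strand: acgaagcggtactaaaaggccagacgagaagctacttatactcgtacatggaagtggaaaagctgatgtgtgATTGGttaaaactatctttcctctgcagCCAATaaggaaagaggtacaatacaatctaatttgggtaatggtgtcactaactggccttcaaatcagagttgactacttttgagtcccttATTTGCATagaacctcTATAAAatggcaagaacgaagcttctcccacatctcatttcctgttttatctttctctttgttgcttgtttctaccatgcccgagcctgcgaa
Hist1h3c, chr13:23745472-23745771, minus strand: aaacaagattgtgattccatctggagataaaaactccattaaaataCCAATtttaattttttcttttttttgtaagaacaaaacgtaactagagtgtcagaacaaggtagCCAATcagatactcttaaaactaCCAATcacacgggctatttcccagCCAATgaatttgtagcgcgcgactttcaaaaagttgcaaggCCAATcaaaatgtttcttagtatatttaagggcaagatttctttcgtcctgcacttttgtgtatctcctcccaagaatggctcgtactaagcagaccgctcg

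The octamer was present at 7 of 18 H2A and 7 of 17 H2B starts and at 0 of the H1, H3 and H4 starts, against 1.735% of all 32851 RefSeq promoters. CCAAT was present at every H1, H2A, H2B and H3 start with an entry but at 3 of 12 H4 starts, against 37.41% of all promoters. TATAAA was present at 35 of the 63 starts (55.56%), against 13.62% of all promoters. These are matches of letters in a fixed window and not measured binding. Windows of a divergent pair can overlap, as those of Hist1h2bg and Hist1h2ae do. The same match may then be counted at an H2A and at an H2B start.

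The 18 libraries held 32.3 to 57.9 M reads (M for 1000000). The values are log2 of counts per 1000000 reads (CPM) plus 1. The added 1 makes a change smaller than the log2 ratio of CPM, the more so the lower the level. A change below is a difference of group means on that scale with its standard error (SE), tested with limma over 17515 genes. A gene that rose or fell had an adjusted p (Benjamini-Hochberg) under 0.05. Prmt1 itself stood at 256, 277 and 285 CPM in Total control and at 147, 176 and 173 CPM in Total knockout libraries, and its change was -0.72 (SE 0.21, limma adjusted p = 0.0202). The Heavy level of Prmt1 fell by 1.88 (SE 0.21, limma adjusted p = 7.87e-06), whereas in Light RNA its change of -0.20 was not called and the groups overlapped. Knockout library 1 lay farthest from its group mean in each fraction; its root mean square deviation was 0.209 in Total, 0.241 in Light and 0.339 in Heavy. Osteoblast-lineage markers summed to 2337 to 6132 CPM in control and 4565 to 13184 CPM in knockout libraries, with 8 of 10 reaching 1 CPM and the late markers Ibsp and Bglap at or near 0. Col1a1, Col1a2 and Sparc make up nearly all of these sums. The mean of Runx2 was lower in Total knockout than in Total control libraries (47.5 against 77.6 CPM), as were those of Sp7 (1.47 against 5.46 CPM) and Pth1r (3.76 against 5.85 CPM), and all 3 means were also lower in Light and Heavy knockout RNA. Macrophage markers (4 of 6 in the table reached 1 CPM, with Ptprc and Itgam near 0) summed to 6.62 to 10.2 CPM and 12.2 to 23.0 CPM. Epithelial markers (2 of 5, Epcam and Cdh1 near 0) summed to 0.634 to 1.38 CPM and 5.90 to 13.1 CPM, and endothelial markers (0 of 5) reached at most 0.275 and 1.10 CPM. The testis germ cell list summed to 0.362 to 3.97 CPM in control and 2.28 to 8.79 CPM in knockout libraries, while Ddx4 and Prm1 were near 0. That list holds the members Hist1h2ba, with means of 1.36 and 5.76 CPM in Total control and knockout libraries, Hist1h2aa, with 0.164 and 0.0240 CPM, and Hist1h1t, with 0 and 0.109 CPM. Its sum is therefore not separate from the histone values. The part of these other cell types in the histone values was not tested.

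Histone messages made up more of the RNA in knockout than in control cells in all 3 fractions. The summed level of the 67 members in Total RNA was 135, 165 and 144 CPM in the control libraries and 559, 464 and 456 CPM in the knockout libraries. In Light RNA the sum was 288, 363 and 321 CPM in control and 769, 875 and 673 CPM in knockout libraries. The Heavy sum was 100.4, 102 and 68.4 CPM in control and 233, 287 and 365 CPM in knockout libraries. In each fraction the lowest knockout library was above the highest control library. A read that matches several members may enter such a sum more than once if it was counted for each of them. Hist1h2ao and Hist1h2ap held the same values in every library except Light knockout library 3 (2.70 and 2.66 CPM). Both enter the sums, as do Hist2h2aa1 and Hist2h2aa2, whose values were nearly the same.

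The rise was spread unevenly over the families. In Total RNA 37 of 67 members rose and 2 fell, where 16.1% of all tested genes rose and 10.3% fell. In Light RNA 33 rose and 10 fell (26.8% and 12.7% of all genes), and in Heavy RNA 33 rose and 1 fell (18.5% and 10.4%). The median change of the members was 0.60 in Total, 0.40 in Light and 0.48 in Heavy RNA, against 0.01, 0.05 and 0.02 over all genes tested. With the coding-length trend described below removed from each library, 36, 41 and 36 members rose and 21, 15 and 10 fell in Total, Light and Heavy RNA. That setting subtracts the median level of all tested genes of similar coding length, with members and low genes included. Whether the added falls come from that subtraction was not tested. Of all 15708 genes tested in that setting, 5016, 7384 and 6015 were called, of which 58.9%, 80.0% and 65.5% were higher. Hist1h2al and Hist3h2bb-ps have no coding length and were not tested there. Over the 3 fractions together, 30 members rose in all 3 (10.7% of all genes) and 1 fell in all 3, Hist1h3c (4.84% of all genes). Another 8 fell in Light RNA with no call in the others (5.13%), and 19 were not called in any (49.1%). The 3 comparisons come from separate libraries, but within a replicate number the fractions may come from one lysate.

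**Figure D1:**
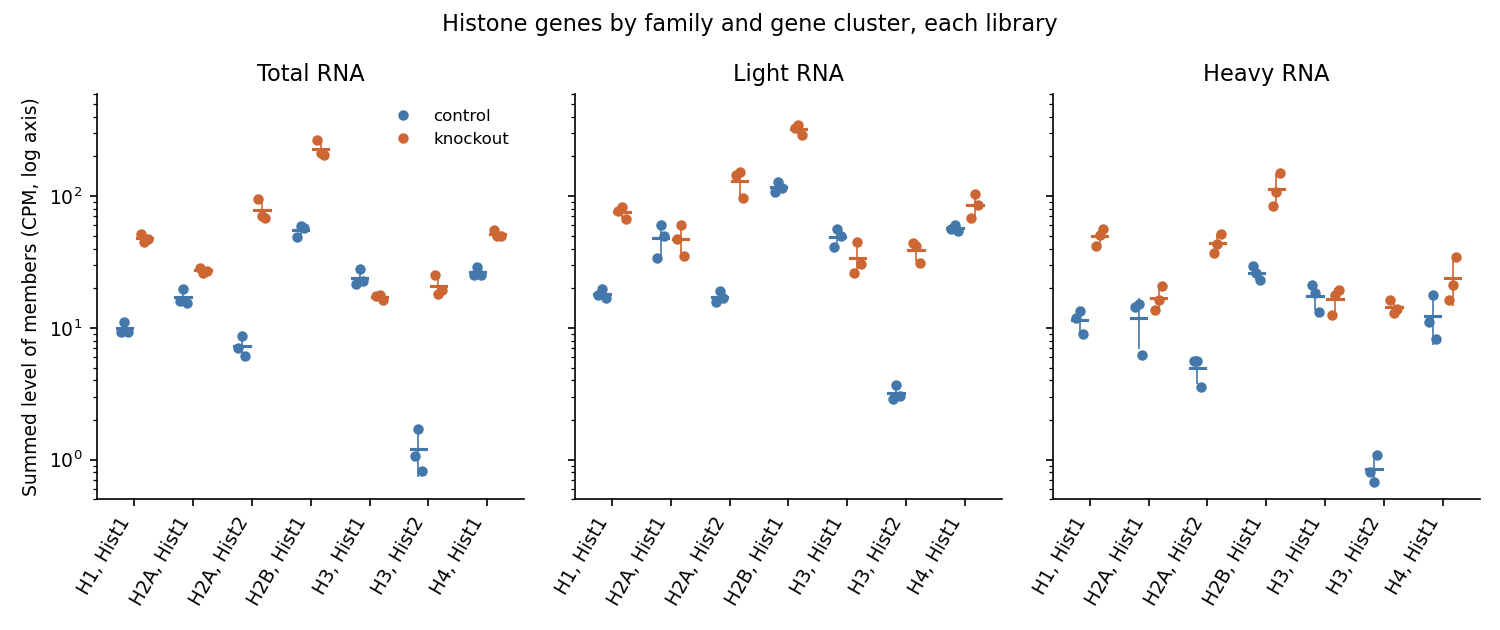
Summed level of histone genes (CPM, log axis) by family and gene group in Total, Light and Heavy RNA; points are libraries, horizontal lines group means and vertical lines SD, with control in blue and knockout in orange. The H1 sums, the Hist1 H2B sums and both Hist2 sets are higher in every knockout library than in every control library, whereas the Hist1 H3 sums are lower in Total knockout libraries (16.2 to 17.8 CPM) than in Total control libraries (21.6 to 27.9 CPM).

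Values assigned to single members need care, because coding sequences within a family are nearly alike. The median share of windows of 50 coding bases that also occur in another member was 10.9% for H1, 82.0% for H2A, 72.2% for H2B, 81.8% for H3 and 70.3% for H4. The sources used here do not give how the authors' counting treated reads with several matches. All values were whole reads, and Hist1h2bq and Hist1h2br, with 100% of windows in another member, held identical values well above 0 (20.5, 25.6 and 23.1 CPM in Light control libraries). Counts of members that rose or fell may therefore rest in part on the same reads, and members of a family are not separate observations. The exons of 25 rows also overlap another annotated gene on one or the other strand.

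Linker histones bind DNA where it enters and leaves the nucleosome, and the H1 family had the lowest median share of windows found in another member. Within it the share was 21.9% for Hist1h1c and 26.4% for Hist1h1d, while Hist2h2be and Hist4h4 of other families had 0%. Hist1h1c, which encodes the variant H1.2, measured 6.73, 7.33 and 7.23 CPM in Total control and 42.4, 35.5 and 37.5 CPM in Total knockout libraries. All knockout libraries were thus above all control libraries, on 237 to 382 reads per control and 1447 to 1534 reads per knockout library. The change was 2.28 (SE 0.14, limma adjusted p = 1.84e-08), and the ratio of mean CPM was 5.42. In Light RNA Hist1h1c went from 13.05, 13.7 and 12.1 CPM to 64.2, 65.7 and 56.4 CPM, and in Heavy RNA from 8.01, 9.94 and 6.22 CPM to 33.5, 41.4 and 45.1 CPM. The changes there were 2.18 and 2.19 (SE 0.14 each, limma adjusted p = 1.82e-08 and 2.98e-08).

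Hist1h1d and Hist1h1e, which encode H1.3 and H1.4, rose in all 3 fractions as well. Hist1h1d was at 0.744, 1.21 and 0.641 CPM in Total control and 3.43, 3.63 and 3.45 CPM in Total knockout libraries (change 1.28, SE 0.16, limma adjusted p = 2.25e-05). Hist1h1e was at 0.904, 1.53 and 0.763 CPM and at 4.49, 4.35 and 4.33 CPM (change 1.40, SE 0.18, limma adjusted p = 2.37e-05). Neither gene's groups overlapped. Hist1h1a (H1.1) and Hist1h1b (H1.5) stayed below 1.2 CPM in every library, and of their 6 changes 1 was called, a rise of Hist1h1a in Heavy RNA by 0.48 (SE 0.15, limma adjusted p = 0.0245). That call held in 10 of 16 settings, the reported one included; it was lost with quantile normalization (0.31), with only the groups compared, and without Heavy control library 2 or 3 or Heavy knockout library 2 or 3 (changes of 0.40 to 0.45). The testis variant Hist1h1t did not exceed 0.205 CPM in any library, although its change of 0.15 in Total RNA was called (SE 0.05, limma adjusted p = 0.0261). That call held in 9 of 16 settings; it was lost with quantile normalization, with only the groups compared, without any 1 Total control library, without Total knockout library 1 and without all 3 knockout libraries numbered 1.

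H2B, which pairs with H2A in the nucleosome, was the family with the most members called. In Total RNA 16 of 18 rose, among them all 14 Hist1 genes, with changes of 0.62 to 2.61 and a median of 1.48 for those 14. In Light RNA 13 of those 14 rose and in Heavy RNA all 14. The largest change belonged to Hist1h2bc, at 9.17, 11.2 and 9.92 CPM in Total control and 77.8, 61.8 and 61.5 CPM in Total knockout libraries (change 2.61, SE 0.17, limma adjusted p = 3.27e-08). The ratio of its mean CPM was 6.64 in Total, 4.75 in Light and 7.15 in Heavy RNA, and no group overlapped its counterpart.

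Hist1h2bq, whose values are shared with Hist1h2br, was at 9.36, 12.0 and 10.96 CPM in Total control cells. It reached 49.7, 39.2 and 36.0 CPM in Total knockout cells, a change of 1.85 (SE 0.16, limma adjusted p = 3.55e-07). Hist1h2bg, whose promoter is printed above, went from 3.69, 4.45 and 4.12 CPM to 18.4, 15.9 and 15.9 CPM (change 1.80, SE 0.19, limma adjusted p = 3.35e-06). Both had control and knockout libraries well apart. The smallest change among the Hist1 H2B genes was that of Hist1h2bb, 0.62 in Total RNA (SE 0.16, limma adjusted p = 0.00815) and 0.13 in Light RNA, where it was not called. Hist3h2ba and Hist3h2bb-ps stayed below 0.2 CPM and were not called.

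**Figure D2:**
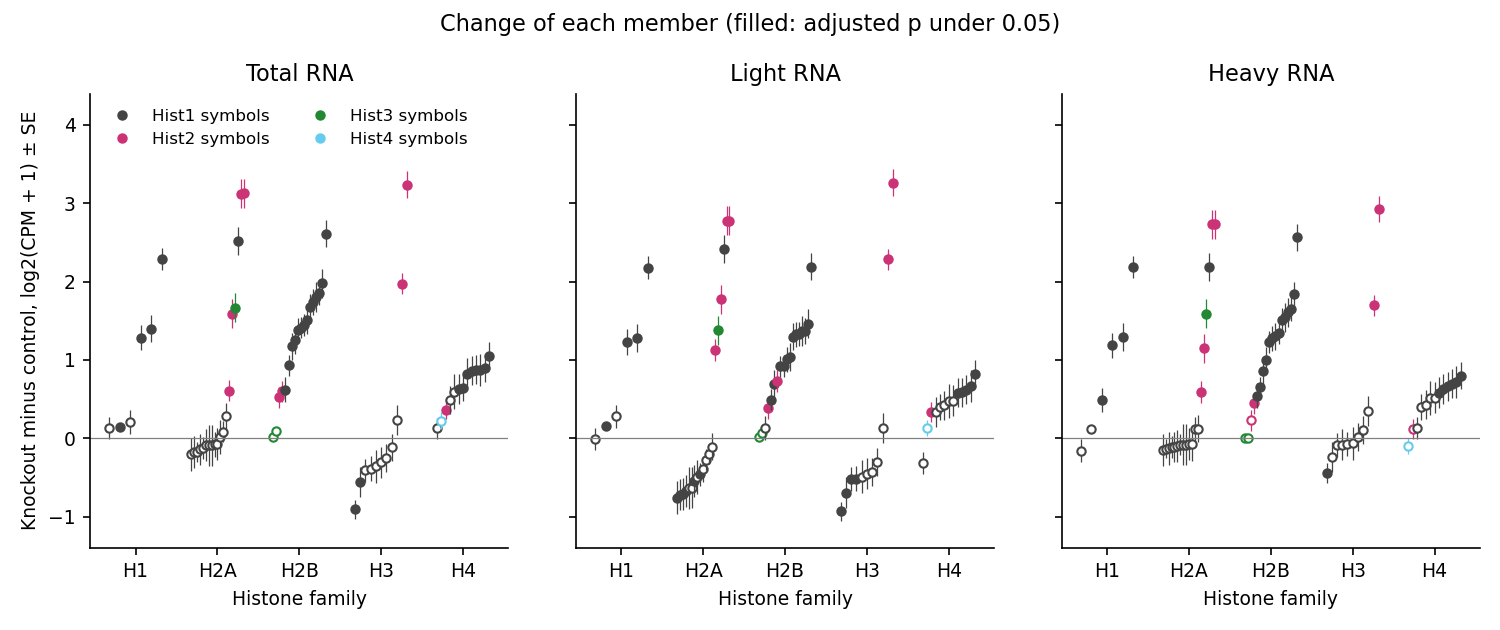
Knockout minus control difference in log2(CPM + 1) for each of the 67 members, by family, in Total, Light and Heavy RNA; points are fitted changes, bars SE, filled points adjusted p under 0.05, and colours the gene group in the symbol. In Total RNA the H2B points of Hist1 all lie above 0 and are filled, while the Hist1 points of H2A and H3 lie near or below 0 apart from the pseudogene Hist1h2al at 2.51.

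H2A split by gene group. In Total RNA 1 of 14 Hist1 H2A rows rose and 0 fell, and the one that rose was the pseudogene Hist1h2al, while all 4 Hist2 genes and Hist3h2a rose. The Hist1 rows without Hist1h2al lay between -0.21 and 0.28. With the coding-length trend removed, 12 of those 13 were called lower in Total RNA and 5 in Heavy RNA. Hist1h2ag then changed by -0.69 (limma adjusted p = 0.00650), against -0.21 as reported, which was not called. For 390 other genes with 300 to 420 coding bases, averaging 1 CPM or more, the median changes were -0.08 in Total and -0.16 in Heavy RNA. Whether the added falls come from the subtraction used in that setting was not tested. Hist2h2aa1 measured 3.16, 4.07 and 2.84 CPM in Total control and 44.5, 34.1 and 32.6 CPM in Total knockout libraries (change 3.12, SE 0.19, limma adjusted p = 1.57e-08). Its ratio of mean CPM was 11.04 in Total, 7.71 in Light and 9.05 in Heavy RNA, with no overlap between groups. Hist2h2aa2 held the same values in most libraries, nearly the same in the others, and is not a separate observation.

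Hist2h2ac, another Hist2 gene of this family, was at 0.319, 0.384 and 0.275 CPM in Total control and 4.10, 2.38 and 2.69 CPM in Total knockout libraries (change 1.59, SE 0.18, limma adjusted p = 8.03e-06). Hist3h2a was at 4.33, 5.64 and 5.77 CPM and at 18.2, 19.2 and 18.8 CPM (change 1.67, SE 0.19, limma adjusted p = 7.59e-06). Its exons overlap those of Trim17 on the same strand, and those of Hist2h2aa1 and Hist2h3c1 overlap the gene model Gm20634, so some of these reads may belong to the other gene. Hist1h2al (chr13:51200084-51203066, minus strand) went from 1.30, 1.63 and 1.28 CPM to 16.5, 11.1 and 11.2 CPM (change 2.51, SE 0.18, limma adjusted p = 6.83e-08), and 67.6% of its windows occur in another member.

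H3, the core histone whose tail carries most of the well-known lysine marks, split in the same way. Hist2h3c1, whose values are shared with Hist2h3c2, had the largest change of all members. It was at 0.824, 1.25 and 0.549 CPM in Total control and at 20.3, 14.2 and 15.5 CPM in Total knockout libraries (change 3.24, SE 0.17, limma adjusted p = 4.69e-09). The control value rests on 18 to 65 reads per library, so the ratio of mean CPM of 19.1 is less precise than that of Hist1h1c. In Light RNA Hist2h3c1 went from 2.07, 2.60 and 2.12 CPM to 35.1, 31.9 and 24.7 CPM, and in Heavy RNA from 0.553, 0.504 and 0.814 CPM to 12.7, 10.3 and 11.04 CPM. Hist2h3b also rose, from 0.239, 0.460 and 0.275 CPM to 4.90, 3.87 and 3.84 CPM in Total RNA (change 1.97, SE 0.14, limma adjusted p = 4.65e-08).

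The 9 Hist1 H3 genes did not rise in any fraction. In Total RNA 2 of them fell, in Light RNA 4 and in Heavy RNA 1, and their median changes were -0.36, -0.49 and -0.07. For 390 other genes with 300 to 420 coding bases, averaging 1 CPM or more, the median changes were -0.08, -0.52 and -0.16. With the coding-length trend removed 8, 6 and 5 of the Hist1 H3 genes fell. Whether the added falls come from that subtraction was not tested. Hist1h3c fell in every fraction. It was at 3.46, 3.84 and 3.97 CPM in Total control and 1.32, 1.78 and 1.52 CPM in Total knockout libraries, with no overlap (change -0.91, SE 0.12, limma adjusted p = 4.18e-05). In Light RNA it was at 5.78, 6.81 and 6.98 CPM in control and 2.54, 3.45 and 2.86 CPM in knockout libraries (change -0.93, SE 0.12, limma adjusted p = 2.00e-05). In Heavy RNA its change was -0.44 (SE 0.12, limma adjusted p = 0.0117), a call that was lost without Heavy knockout library 1 (change -0.36, adjusted p = 0.0535). Hist1h3b was at 2.74, 3.63 and 2.50 CPM in Total control and at 1.79, 1.83 and 1.39 CPM in Total knockout libraries (change -0.56, SE 0.20, limma adjusted p = 0.0437). Its call in Total RNA was lost when any of 5 libraries was left out, Total control library 1 or 2 or Total knockout library 1, 2 or 3, with changes between -0.60 and -0.44.

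**Figure D3:**
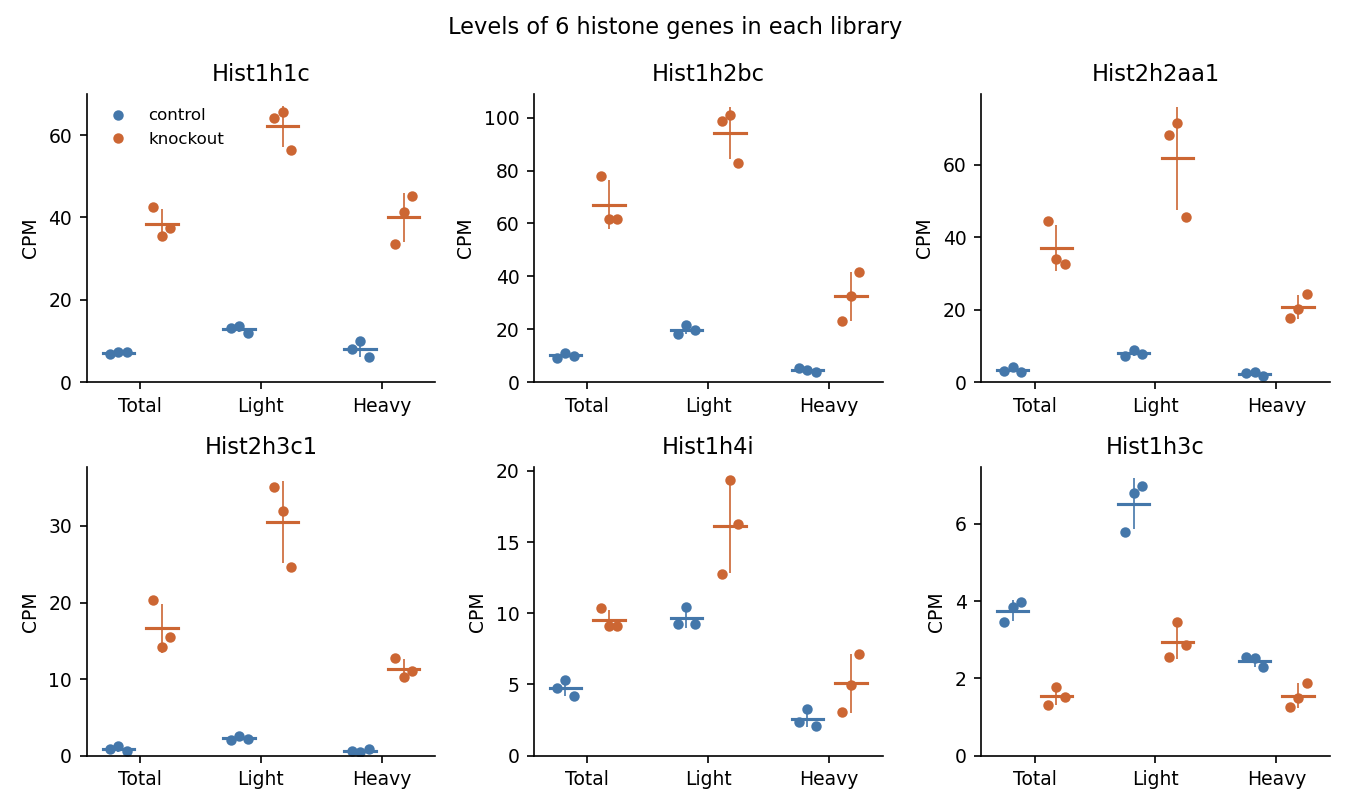
Level in CPM of 6 histone genes in every library, by fraction, with control in blue and knockout in orange; horizontal lines are group means and vertical lines SD of 3 libraries. Hist1h1c, Hist1h2bc, Hist2h2aa1 and Hist2h3c1 are higher in each knockout library than in each control library of the same fraction, Hist1h3c is lower, and Hist1h4i overlaps in Heavy RNA.

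H4, the partner of H3 in the nucleosome, changed less than H2B. In Total RNA 8 of 11 Hist1 genes rose, by 0.63 to 1.05, in Light RNA 5 and in Heavy RNA 6. With quantile normalization those counts became 5, 1 and 1, while the median change of the 11 stayed above 0 in each fraction (0.59, 0.24 and 0.37). Hist1h4i, the H4 gene with the highest level, was at 4.76, 5.30 and 4.21 CPM in Total control and 10.4, 9.08 and 9.07 CPM in Total knockout libraries (change 0.87, SE 0.20, limma adjusted p = 0.00456). In Light RNA it went from 9.27, 10.4 and 9.26 CPM to 12.8, 19.3 and 16.3 CPM (change 0.67, SE 0.20, limma adjusted p = 0.0159), and in Heavy RNA the groups overlapped, with 2.39, 3.25 and 2.10 CPM in control and 3.07, 4.99 and 7.16 CPM in knockout libraries (change 0.72, SE 0.20, limma adjusted p = 0.0142). Its Light call was lost without Light knockout library 2 and its Heavy call without Heavy control library 3 or Heavy knockout library 3, with changes of 0.54, 0.62 and 0.48. Hist1h4h had the largest change of the family, from 2.10, 2.24 and 1.92 CPM to 6.10, 5.22 and 4.96 CPM in Total RNA (change 1.05, SE 0.17, limma adjusted p = 0.000279). Hist4h4, on chromosome 6, was below 0.8 CPM in every library and was not called.

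By gene group, all 9 Hist2 members rose in Total and in Light RNA and 7 of 9 rose in Heavy RNA, where 16.1%, 26.8% and 18.5% of all genes rose. The 9 include Hist2h2aa1 and Hist2h2aa2, which are not separate observations. The call of Hist2h4 held in 7 of 16 settings in Total RNA and in 5 of 16 in Light RNA, where its groups overlapped. That of Hist2h2bb held in 13 of 16 in Total and 7 of 16 in Light RNA. Of the 54 Hist1 members 27 rose and 2 fell in Total RNA, and their median change was 0.54 against 1.59 for the Hist2 members. By family and group, the summed CPM of Hist2 H2A genes went from 7.04, 8.73 and 6.07 CPM to 94.4, 71.2 and 68.6 CPM in Total RNA, and that of Hist1 H2A rows from 15.98, 19.7 and 15.5 CPM to 28.3, 26.3 and 27.2 CPM. The Hist2 H2A sum holds both Hist2h2aa1 and Hist2h2aa2, each at 44.5 CPM in Total knockout library 1. Without Hist1h2al the Hist1 H2A rows summed to 14.7, 18.1 and 14.2 CPM in Total control and to 11.8, 15.2 and 15.99 CPM in Total knockout libraries, which overlap.

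The annotated end of the message gave a less sharp split. Of 23 members with a stem-loop and at most 100 annotated bases after it, 12 rose and 2 fell in Total RNA, with a median change of 0.62. Of 22 members with over 100 annotated bases after the stem-loop 14 rose and 0 fell, with a median of 0.84. The 3 members without a match in over 100 bases (Hist1h2bc, Hist1h2bq and Hist2h2be) all rose in each fraction. Of the 19 remaining members 8 rose and 0 fell in Total RNA, with a median of 0.13. The annotation lists possible ends and does not say which ends these cells used, and no test of the difference between these sets was made.

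Counting only whether the libraries overlapped, 41 members had every Total knockout library above every Total control library and 10 had every one below, where the shares of all genes were 24.4% and 20.2%. In Light RNA the counts were 37 and 4 (33.3% and 17.3% of all genes), and in Heavy RNA 32 and 1 (24.1% and 13.8%). The members that fell in Light RNA were 6 Hist1 H2A and 4 Hist1 H3 genes, with changes from -0.93 to -0.46. Hist1h2ag, the H2A gene with the largest of these, was at 1.81, 3.94 and 3.23 CPM in Light control and 1.12, 2.17 and 0.789 CPM in Light knockout libraries, which overlap (change -0.76, SE 0.21, limma adjusted p = 0.00905). A fall in Light RNA was not particular to histone genes. For 390 other genes with 300 to 420 coding bases, averaging 1 CPM or more, the median Light change was -0.52. The number that fell in Light RNA depended on 1 library at a time: it was 2 without Light control library 2, 4 without Light knockout library 1, 5 without Light knockout library 3, 18 without Light control library 1 and 19 without Light knockout library 2. With quantile normalization or with median-of-ratios scaling, 26 members rose and 20 fell in Light RNA in place of 33 and 10.

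In control cells histone messages were found more in the Light than in the Heavy pool. Of 67 members 60 were lower in Heavy than in Light RNA and 0 higher, where 27.1% of all genes were lower and 23.6% higher. The median difference was -1.27 over the members and -0.01 over all genes. The summed CPM of the members in Light RNA was 2.87, 3.55 and 4.69 times that in Heavy RNA of the same number in control cells. By family this ratio ran from 1.47 to 1.87 for H1, 2.48 to 6.11 for H2A, 3.55 to 4.95 for H2B, 2.00 to 3.68 for H3 and 3.40 to 6.73 for H4, so that the H1 range lay below the ranges of the 4 core families.

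Single members showed the same order. Hist1h2bq was at 20.5, 25.6 and 23.1 CPM in Light control and 5.63, 5.38 and 4.64 CPM in Heavy control libraries (difference -1.95, SE 0.16, limma adjusted p = 2.82e-08). Hist1h2bc was at 18.3, 21.5 and 19.8 CPM and at 5.17, 4.59 and 3.85 CPM (difference -1.92, SE 0.17, limma adjusted p = 9.24e-08). Hist1h4i differed by -1.58 (SE 0.20), Hist2h2aa1 by -1.46 (SE 0.19) and Hist1h3c by -1.12 (SE 0.12), all called by limma with adjusted p of 4.89e-06, 4.51e-06 and 7.36e-07. Hist1h1c differed by -0.64 (SE 0.14, limma adjusted p = 0.00105), and Hist1h1b by 0.11, which was not called.

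As background, a short coding sequence has room for fewer ribosomes, and histone coding sequences are short, at 312 to 672 bases. Among other genes averaging 1 CPM or more, the median Heavy minus Light difference in control cells was -1.87 for 390 genes with 300 to 420 coding bases, -0.63 for 578 genes with 600 to 700 and 0.32 for 1440 genes with 1200 to 1500. The H4 median was -1.58, that of H2B -1.61, of H2A -1.27, of H3 -1.10 and of H1 -0.35. These family medians take all members, without that filter, and the H1 median includes the low Hist1h1a, Hist1h1b and Hist1h1t. The more abundant H1 genes were at -0.64 (Hist1h1c) and -0.49 (Hist1h1d and Hist1h1e). Because 1 is added before the log2, these differences also depend on the level of a gene. Hist1h2ag, for one, had control means of 3.00 CPM in Light and 0.640 CPM in Heavy RNA but a difference of -1.26. The order of the families and their place among the length classes may reflect level in part, which was not tested. With the trend over coding length removed from each library, 32 members were higher in Heavy than in Light RNA and 3 were lower. Over all genes 10065 were called in that setting, of which 52.0% were higher. Hist1h1c, Hist1h4i, Hist1h3c and Hist2h2aa1 then had differences of 0.24, 0.44, 0.42 and 0.075. Hist1h2bc, Hist1h2bk and Hist1h2bq were still called lower in Heavy RNA with that trend removed and under every other alternative tried. Against Total RNA, 25 members were lower in Heavy RNA of control cells and 0 higher (31.3% and 12.8% of all genes), a count that fell to 0 with quantile normalization, where 4 were higher.

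**Figure D4:**
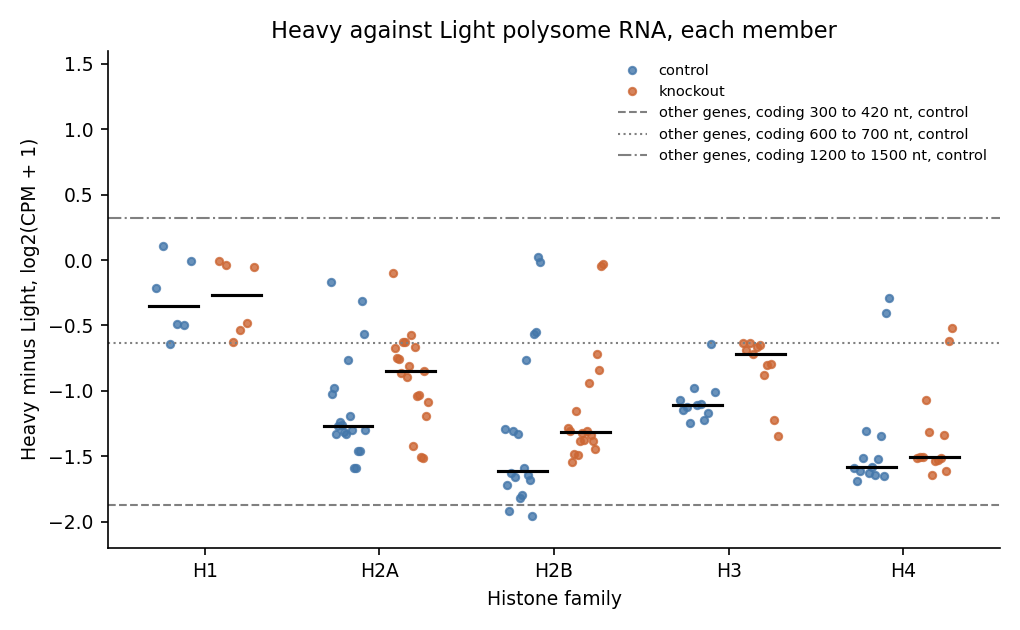
Heavy minus Light difference in log2(CPM + 1) of group means for each member by family, in control (blue) and knockout (orange) cells, with black lines for family medians and grey lines for the control median of other genes in 3 classes of coding length. The core families lie mostly between the lines of the shortest class (-1.87) and the class of 600 to 700 bases (-0.63), and the H1 median in control cells, over all 6 genes at any level, is -0.35.

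No member's share between the Heavy and Light pools was called changed in knockout cells by the reported test, although some alternatives made calls. The knockout minus control difference of Heavy over Light was called for 0 of 67 members in limma, where 0.354% of all genes were called higher and 2.52% lower. At an unadjusted p under 0.05 there were 12 (9 higher and 3 lower), and limma with voom weights on recovered reads also called 0. Without Heavy knockout library 1, 2 members were called higher and 1 lower, and without all 3 knockout libraries numbered 1, 3 were called higher and 0 lower. With the coding-length trend removed, 5 members were called lower and 0 higher, and without Light knockout library 3, 1 was called lower. Heavy over Total gave 0 calls among members (0.00571% of all genes were called higher and 0.00571% lower), with 1 member at an unadjusted p under 0.05 and 0 calls with voom weights. The Light to Heavy ratio of the summed members was 3.30, 3.05 and 1.84 in knockout libraries 1 to 3, which overlaps the control range. Hist1h1c had a shift of 0.01 (SE 0.20) and Hist1h2bc of 0.37 (SE 0.24), while Hist2h3c1 had -0.34 (SE 0.24). A shift of that size is within what these SEs leave undetected.

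Genes linked to the making and processing of histone messages, and histone chaperones with replication genes, were listed separately from the members. The list for transcription and processing of histone messages held 36 symbols, of which Ars2, Tut7 and Tut4 are other names of Srrt, Zcchc6 and Zcchc11. Of the 33 genes tested, 1 rose and 6 fell in Total, 7 rose and 8 fell in Light and 5 rose and 9 fell in Heavy RNA. The 1 that rose in Total RNA was the ubiquitin ligase Trim21. Of all genes tested 16.1% rose and 10.3% fell in Total, 26.8% and 12.7% in Light and 18.5% and 10.4% in Heavy RNA. Lsm11, of the U7 particle, fell in each fraction: it was at 19.1, 22.2 and 20.3 CPM in Total control and 6.65, 8.34 and 9.61 CPM in Total knockout libraries (change -1.24, SE 0.17, limma adjusted p = 4.10e-05), and its changes in Light and Heavy RNA were -1.09 and -1.34. Lsm10 fell by 0.96 in Light and by 0.42 in Heavy RNA (limma adjusted p = 5.59e-05 and 0.0330), and its change of -0.34 in Total RNA was not called. Slbp was at 112, 98.7 and 91.4 CPM in Total control and 93.2, 97.1 and 90.6 CPM in Total knockout libraries, which overlap, and was not called there or in Heavy RNA. In Light RNA Slbp rose by 0.34 (SE 0.11, limma adjusted p = 0.0174).

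Npat, the coactivator of histone gene transcription, had changes of 0.11 in Total, 0.48 in Light and 0.66 in Heavy RNA, of which the last was called (limma adjusted p = 0.0235). The helicase Upf1, which takes part in histone message decay, had changes of -0.16, 0.48 and 0.56, the latter pair called (limma adjusted p = 0.0193 and 0.0107). Casp8ap2 (0.25, 0.47 and 0.43) and the exonuclease Eri1 (-0.34, -0.19 and -0.32) were not called in any fraction. The lowest p beside Lsm11 in Total and Heavy RNA belonged to Trim21, an E3 ubiquitin ligase that also binds antibodies, which rose by 1.62 and 1.63. In the Heavy over Light shift 2 listed genes were called, Cstf2 (-0.75) and Ncbp1 (-0.61), and in Heavy over Total 0, with Upf1 (0.72) and Srrt (0.48) lowest in p. In control cells Lsm10 and Ncbp1 had the lowest p for Heavy against Light (-2.00 and 1.34), and Lsm1 and Snrpg for Heavy against Total (-1.78 and -2.12).

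Of 30 histone chaperones and replication genes 0 rose and 9 fell in Total RNA, 12 rose and 8 fell in Light RNA and 6 rose and 10 fell in Heavy RNA, to be read against the same shares of all genes. The thymidylate synthase gene Tyms was at 137, 138 and 135 CPM in Total control and 70.5, 85.2 and 79.6 CPM in Total knockout libraries (change -0.80, SE 0.12, limma adjusted p = 0.000168), and it fell by 0.62 in Light and by 0.99 in Heavy RNA. Chaf1b, a subunit of the chaperone that deposits H3 and H4 at replication, fell by 0.63 in Total and by 0.85 in Heavy RNA. Rrm2, of ribonucleotide reductase, fell by 0.88 in Total and by 0.78 in Heavy RNA, and its change of -0.21 in Light RNA was not called. Pcna, the sliding clamp, rose by 0.95 in Light RNA (SE 0.13, limma adjusted p = 3.93e-05), and its changes of 0.33 in Total and 0.10 in Heavy RNA were not called.

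The 6 Mcm genes of the replicative helicase were not called in Total RNA and all rose in Light RNA, by 1.04 for Mcm3, 0.96 for Mcm7, 0.95 for Mcm2 and Mcm6, 0.75 for Mcm5 and 0.62 for Mcm4. In Heavy RNA Mcm3, Mcm2, Mcm7 and Mcm6 rose by 0.80, 0.68, 0.67 and 0.52. Cdt1, which loads that helicase, had the second lowest p of the list in Light RNA, with a rise of 0.81. The Heavy over Light shift was called for Chaf1b (-0.75) and Pcna (-0.85), and in Heavy over Total 0 were called, with Rrm1 (0.69) and Uhrf1 (0.63) lowest in p. In control cells Pcna and Fen1 had the lowest p for Heavy against Light (1.92 and 1.56), and E2f1 and Pcna for Heavy against Total (-1.60 and 0.94).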

How the data were processed

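The authors deposited a single table of log2(CPM + 1) values, where CPM is counts per 1000000 reads, for 19862 genes and 18 libraries. With the log2 undone and the depth found from the smallest steps, 100% of values were whole reads to within 0.1. Per the submitters' processing notes, STAR, edgeR and mm10 were used. The sources used here do not give the read counter, its treatment of multiply matched reads, its strand setting or whether poly(A) RNA was selected; messages without a poly(A) tail would be underrepresented in poly(A)-selected RNA.

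Genes above 0 in at least 3 libraries (17515) were fitted with limma 3.58.1 in R 4.3.3, with a trend, robust variances and 6 group means over all 18 libraries, without a replicate block. Adjusted p is Benjamini-Hochberg over all genes tested, called under 0.05. The test was checked on simulated data with known changes in genes averaging above 1 CPM. That check did not cover members at lower levels or reads shared between genes. Gene models, ends and promoters came from GENCODE M21 and RefSeq GRCm38.p6, and symbols of all 69 rows matched RefSeq by gene identifier. Python 3.11.15, pandas 2.3.3, numpy 2.4.6 and matplotlib 3.10.9 made the tables and plots. Pearson's r between replicate libraries was 0.986 to 0.999, with a chi-square per degree of freedom of 12.2 to 241, so replicates differed by more than counting noise.

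The members and lists were chosen with earlier results of these data known. Members with a group mean of at least 5 CPM in some group were to be described by library where results turned on them, together with a fixed set of pathway genes and the 2 with the lowest p in each list and comparison; members below that level named here were chosen after their values were seen. Same-numbered Light and Heavy libraries deviated together from their group means (control cells, r of 0.324 to 0.412; knockout cells, 0.276 to 0.602), so their numbers pair them. Total and Light knockout libraries did as well (0.434 to 0.642), but not those of control cells (-0.647 to 0.355), and Total with Heavy gave 0.0609 to 0.510 and -0.448 to 0.165, so Total was not taken as paired. Across numbers, Total control library 1 correlated with Light and Heavy control library 3 (0.780 and 0.424). Total control library 3 did so with Light and Heavy control library 1 (0.688 and 0.416). Whether these numbers were exchanged was not tested. Alternatives were quantile normalization, median-of-ratios scaling, other filters (none, or a mean of at least 1 CPM), a pseudocount of 0.1 CPM, voom on recovered reads, only the groups compared, a replicate block, subtraction of the median in each of 50 bins of coding length, leaving out each library, and leaving out the 3 knockout libraries numbered 1.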

Additional observations from a re-analysis of the deposited data

How the results depend on the processing

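The main limits are the near identity of members within a family, 3 libraries per group, and the scaling to library totals. Low members rest on few reads per library. Of 37 members that rose in Total RNA, 28 kept their call under every alternative that could test them, as did 25 of 33 in Light and 23 of 33 in Heavy RNA, and Hist1h3c among those that fell in Total and in Light RNA. Of the 60 lower in Heavy than in Light control RNA, 4 did, including Hist1h2al, which has no coding length and was not tested without that trend. Of 59 named pairs of a member and a comparison, 43 kept their call in every setting.

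The other counts moved as follows; the cause was not tested except where a setting leaves out libraries. With quantile normalization 4 members fell in Total, 20 in Light and 2 in Heavy RNA, and against Total RNA 4 were higher and 0 lower in Heavy RNA of control cells. With median-of-ratios scaling 20 fell in Light RNA, and 2 were higher in Heavy than in Total control RNA. Without a filter 1 fell in Total RNA. With only the groups compared 4 fell in Light and 0 in Heavy RNA. With the coding-length trend removed 21 fell in Total and 10 in Heavy RNA, 5 had a lower Heavy over Light shift, 32 were higher and 3 lower in Heavy than in Light control RNA, and 15 were higher and 7 lower in Heavy than in Total control RNA. Under that setting Hist1h1c (0.24), Hist1h4i (0.44), Hist1h3c (0.42) and Hist2h2aa1 (0.075) turned direction in Heavy against Light. Without the 3 knockout libraries numbered 1, 3 members had a higher Heavy over Light shift, where 1872 of all genes were called and 30.1% of those were higher.

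Leaving out 1 library at a time gave 34 to 37 members that rose and 1 to 3 that fell in Total RNA, 27 to 35 and 2 to 19 in Light RNA, and 27 to 37 and 0 to 1 in Heavy RNA. The Heavy over Light shift then gave 0 to 2 higher and 0 to 1 lower, the single lower call without Light knockout library 3 or Heavy knockout library 1. In control cells 56 to 60 members were lower in Heavy than in Light RNA and 24 to 27 lower than in Total RNA. Over all genes the share of calls that were higher was 60.9% in Total, 67.9% in Light and 64.1% in Heavy RNA, against 48.8%, 47.3% and 48.9% with quantile normalization.

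Control and knockout libraries of a fraction share only a number: same-numbered deviations correlated at -0.161 to 0.558 in Total, -0.068 to 0.083 in Light and -0.453 to -0.233 in Heavy RNA. With the replicate block 39 members rose and 3 fell in Total, 34 and 15 in Light and 33 and 1 in Heavy RNA. For the Heavy and Light libraries taken as paired the block left the shift at 0 and 0 calls, and 60 members lower in control Heavy than Light RNA.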
